A study of Mus musculus with 3 samples.

Results

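The genes described here are the clustered replication histone genes of the mouse: every gene whose symbol begins with Hist1h, Hist2h, Hist3h or Hist4h and that has at least 1 protein-coding transcript in the deposited annotation. There were 67 such genes among 55536 annotated genes. They comprised 6 H1, 18 H2A, 18 H2B, 12 H3 and 13 H4 genes. The RNA came from the chromatin fraction of C57BL/6J bone-marrow-derived macrophages, was depleted of ribosomal RNA and was sequenced as total RNA. All 3 libraries belong to a single group: macrophages were given Lipid A, the part of bacterial endotoxin that macrophages sense, at 100 ng/ml for 12 h, were washed and left for 12 h, and were then given Lipid A at 100 ng/ml again for 15 min. No untreated group was analysed here, so no result below is an effect of Lipid A. Replicates 1, 2 and 3 were prepared from 1000, 250 and 500 ng of RNA. One donor identifier covers all 3 replicates, and whether separate animals were used is not stated, so p-values and SDs measure the spread between these libraries, which may be technical.

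Histones are the proteins around which DNA is wound. H2A, H2B, H3 and H4 build the core of the nucleosome, and the linker histone H1 binds where the DNA enters and leaves it. Replication histone genes are the copies that cells transcribe mainly in S phase, when new DNA has to be packaged. Their mRNAs usually lack introns and end in a short stem-loop in place of a poly(A) tail. The stem-loop-binding protein SLBP holds this structure while the transcript is cut just after it. In differentiated cells some of these genes are also known to yield longer, polyadenylated mRNAs. Mature macrophages divide little unless growth factors drive them, and a library of total RNA keeps RNAs without a poly(A) tail.

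The stem-loop letters are shown first because they mark where a processed histone mRNA ends. The annotated transcripts were searched after the stop codon for 16 bases with the pattern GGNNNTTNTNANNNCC, in which 6 bases on each side pair around a loop of 4. The motif was found in 46 of the 67 genes, at 21 to 58 bases after the stop codon (median 31). All 12 H4 genes with a motif had a left arm that read GGCCCT or GGTCCT, and all 34 genes of the other classes read GGCTCT. The variants below are transcript sequences from GENCODE M21, printed 5′ to 3′ with T for U, with the 16 bases in capitals and a few bases on each side, and each stands for the genes that share its capitals.
Hist1h1c (26 genes): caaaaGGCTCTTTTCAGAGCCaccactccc
Hist1h2bb (6 genes): ccaaaGGCTCTTTTAAGAGCCacccacact
Hist2h2ac (1 gene): aaaaaGGCTCTTTTTAGAGCCaccaaatct
Hist1h3g (1 gene): ttaaaGGCTCTTCTTAGAGCCacccatctt
Hist1h4m (7 genes): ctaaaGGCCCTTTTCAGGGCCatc
Hist1h4i (2 genes): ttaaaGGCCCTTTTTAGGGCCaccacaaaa
Hist1h4b (2 genes): caaaaGGTCCTTTTCAGGACCactcactga
Hist1h4a (1 gene): ccaaaGGCCCTTCTCAGGGCCgcccacatt
On mm10 the capitals lay at chr13:23739512-23739527 for Hist1h1c (plus strand), chr3:96220418-96220433 for Hist2h2ac (minus strand), chr13:21812129-21812144 for Hist1h4m (plus strand) and chr13:22040966-22040981 for Hist1h4i (minus strand). Where no match was found, in the remaining 21 genes, these letters are only missing from the annotated transcripts, and 15 of these genes have a transcript that is annotated no further than the stop codon.

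The libraries held 14609979, 17423948 and 24162551 expected counts in replicates 1, 2 and 3. An expected count is the number of reads assigned to a gene after reads that fit several places have been divided between them. The 67 genes took 3111.5 of these counts in replicate 1, 4931.54 in replicate 2 and 3557.1 in replicate 3. Their share of the counts in annotated genes was 0.0216% in replicate 1 (exact binomial 95% interval 0.0208 to 0.0223), 0.0284% in replicate 2 (0.0277 to 0.0292) and 0.0148% in replicate 3 (0.0143 to 0.0152). These intervals do not overlap, but they cover counting error only, since the reads carry no molecular identifiers and copies of a molecule are counted again. Of the macrophage markers, 9 of 9 had a mean of at least 1 TPM, against 0 of 8 neutrophil, 0 of 8 lymphocyte, 0 of 6 stromal and 1 of 5 erythroid markers.

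Genes with 10 or more expected counts per library on average were called detected, which held for 39 of the 67. The same rule passed 53.4% of all protein-coding genes. A mean of at least 1 TPM, a unit that divides counts by transcript length and gives all libraries an equal sum, was reached by 51 of the 67 and by 48.4% of protein-coding genes. H4 and H1 genes passed most often, with 11 of 13 and 5 of 6, followed by 9 of 18 H2A, 9 of 18 H2B and 5 of 12 H3 genes. The 28 genes below that count had means of 0 to 3.41 TPM. In every library 6 genes were listed at 0 (Hist1h2aa, Hist1h2ah, Hist1h2ao, Hist1h2ba, Hist1h2bp and Hist2h3c1). A count of 0 observed directly still allows up to 3 counts. These values were left after shared reads had been divided, so that limit need not hold for them. In the separate read-based table, which the authors made straight from the reads, 3 of these 6 had values above 0, up to a mean of 0.971 TPM. That mean belonged to Hist1h2ao, with 2.82, 8.48 and 11.0 estimated counts in replicates 1, 2 and 3. Many copies are almost identical: 35 of the 67 genes had fewer than 50% of their 50-base windows to themselves in the annotated transcriptome, and 6 had none. Values of such genes are uncertain one by one, and sums over a class are less touched by how reads were divided within the class. Such sums do not cover reads divided with genes outside the family. The H2A gene Hist1h2ab, for example, shares windows with 31 such genes, among them H2afj and H2afx.

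The clusters differed in how many of their genes were detected. Hist1, the largest cluster (chr13:21715763-23934851), had 28 of 54 genes detected and summed to 177.61, 329.24 and 127.89 TPM in replicates 1, 2 and 3. Hist1 falls into a pair of blocks separated by a stretch without members. The block at chr13:21715763-22043676 had 10 of 23 genes detected and 106 ± 61.8 TPM (SD, n = 3), and the block at chr13:23531050-23934851 had 18 of 31 and 106 ± 43.2 TPM. Hist2 (chr3:96219865-96270132) had 9 of 10 genes detected and 84.68, 113.61 and 75.15 TPM. Hist3 on chromosome 11 had 1 of 2 detected, and the sole Hist4 gene, on chromosome 6, was detected. The 10 genes with the highest means together made up 60.5% of the TPM of all 67.

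Summed over all members of a class, H2A and H4 RNA were the most abundant and H1 and H3 the least. H2A genes summed to 139 ± 32.4 TPM (SD, n = 3), H4 genes to 113 ± 57.0, H2B genes to 51.6 ± 17.7, H1 genes to 26.0 ± 12.9 and H3 genes to 20.3 ± 10.8. H2A and H4 did not separate beyond their spread, with 175.9 and 177 TPM in replicate 2, and H1 and H3 exchanged places in replicate 3. On this per-length scale H4 lay above H2B, and H2B above H1 and H3, in each library. By expected counts, which are not divided by length, H4 genes held 496.94, 947.97 and 513.95 and H2B genes 560.34, 820 and 552.71, so that H4 exceeded H2B in replicate 2 only. In the read-based table the means ran in the same order, at 110 ± 25.6, 91.2 ± 37.9, 57.5 ± 21.2, 19.5 ± 9.00 and 14.1 ± 6.79 TPM. Without Hist3h2a, the highest gene of all, the mean H2A sum was 93.5 TPM, below the mean of H4. That order did not hold in replicate 3, where H2A summed to 113.85 TPM, Hist3h2a included at 40.39, and H4 to 66.98. These are bulk values, in which fewer cells that make histone RNA and less such RNA per cell cannot be told apart.

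**Figure D1:**
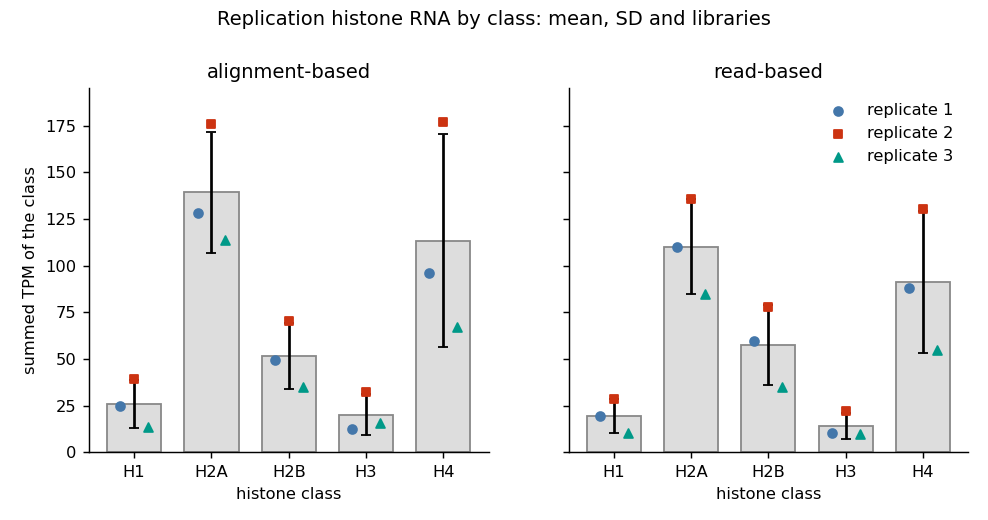
Summed TPM of the members of each histone class in the alignment-based gene table (left) and the read-based table (right). Bars are means, error bars are SD (n = 3) and points are libraries. Replicate 2 was highest in every class in both tables, for example 177 TPM for H4 against 95.88 and 66.98 in the alignment-based table.

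Among the linker histones, Hist1h1c (chr13:23738808-23740367, plus strand) was the highest at 12.03, 20.92 and 6.95 TPM in replicates 1, 2 and 3. Hist1h1a, another replication-dependent H1 subtype, followed at 4.81, 7.32 and 1.84 TPM, and Hist1h1e at 4.87, 5.61 and 3.22 TPM. All 3 were highest in replicate 2 and lowest in replicate 3. Hist1h1d was the lowest detected member by alignment-based TPM, at 1.09, 2.15 and 0.46 TPM. Its annotated transcript of 7425 bases runs far past its stem-loop, and its mean count of 135 exceeded the 35.3 of Hist1h1a. In the read-based table Hist1h1b was lower, at a mean of 1.04 TPM against 1.82 for Hist1h1d. Hist1h1t encodes the linker histone of testis, and it had 10, 15 and 1 counts, under the detection limit. Its core histone counterparts from testis, Hist1h2aa and Hist1h2ba, were at 0 in each library.

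The H2A genes held the highest values of the family. Hist3h2a (chr11:58954685-58956830, plus strand) stood at 47.94, 49.46 and 40.39 TPM with 1160, 1470.18 and 1523.51 counts. Its spread beyond counting noise, as edgeR estimates it, was the lowest of the detected members (coefficient of variation 0.134). It is a single-exon gene that starts at the same base as Trim17, a gene for a ubiquitin ligase of the TRIM family, on the same strand. The first exon of the transcript Trim17-201, which is noncoding, covers 708 bases of Hist3h2a. Reads in those bases could belong to either gene. All 2146 bases of Hist3h2a lie within Trim17 on that strand, so unspliced Trim17 RNA could give reads anywhere in Hist3h2a. The authors' division of reads gave Trim17-201 0, 0 and 0.15 TPM and the whole of Trim17 4.69, 5.12 and 5.58 TPM, values that depend on that same division.

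Hist2h2aa2 (chr3:96239749-96240276, minus strand) was listed at 38.07, 47.75 and 32.78 TPM, and its twin Hist2h2aa1 at 3.44, 1.39 and 2.83 TPM. Their coding sequences are identical and neither has a 50-base window of its own, so the split between them is uncertain. Both also overlap antisense genes, Gm20632 (5.27, 4.11 and 3.49 TPM) and Gm20633 (2.78, 2.81 and 2.93 TPM), and Hist2h2aa1 shares bases with Gm20634 (7.67, 8.15 and 4.70 TPM) on its own strand. Reads of overlapping genes could be split either way, and the sources used here do not state whether strand was used in counting. Hist2h2ac (chr3:96220361-96220880, minus strand) reached 19.25, 30.41 and 17.09 TPM. The lowest detected H2A gene was Hist1h2ac, at 1.10, 1.64 and 0.88 TPM. Hist1h2ap was at 2.15, 12.05 and 5.53 TPM, and among detected members it had the lowest ratio of read-based to alignment-based TPM after Hist2h3b, with 6.93% of its windows unique. Hist2h2ab went the other way, at 4.72, 3.91 and 2.25 TPM in the alignment-based table and 7.70, 10.1 and 4.68 TPM in the read-based table, so that the library with its highest value depended on the table.

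H2B RNA was led by Hist1h2bg at 8.18, 13.20 and 6.14 TPM and by Hist1h2bc at 10.17, 12.50 and 2.98 TPM. Hist1h2bc (chr13:23684199-23692908, plus strand) is unusual in the family because its annotated transcript is spliced, as it is in 5 members, and this model carries no stem-loop motif. Of the windows of this model 69.4% were unique, and it shares windows with 206 genes outside the family, so its level is also uncertain. Hist2h2be (chr3:96221119-96223738, plus strand) was at 7.01, 6.11 and 4.73 TPM, and all of its 50-base windows were unique. It was highest in replicate 1, unlike the other leading H2B genes. At the lower end Hist1h2bq held 1.27, 1.23 and 1.12 TPM. Of this, 1.27, 0.65 and 0.75 TPM were given to a transcript annotated for nonsense-mediated decay. The coding sequence of Hist1h2bq equals that of Hist1h2br, which was lower in the read-based table, at a mean of 0.913 TPM against 2.52.

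H3 genes were low throughout. Hist2h3b led at 1.59, 9.24 and 5.10 TPM, on counts of 5.56, 34.42 and 24.62 and with no unique window, so its level is the least certain of the class leaders. Hist1h3d was at 4.23, 5.02 and 2.13 TPM with 75.2% of its windows unique. In the read-based table it led the class, at a mean of 3.40 TPM against 2.19 for Hist2h3b. Hist1h3i averaged 2.49 TPM but missed the detection limit, with 3.14, 12.93 and 4.27 counts. The lowest detected H3 gene was Hist2h3c2 at 1.11, 2.75 and 1.06 TPM, while Hist2h3c1, with an identical coding sequence, was listed at 0.

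The H4 genes, which code for nearly the same protein, had 4 members at similar high levels. Hist1h4m was at 12.35, 30.93 and 13.19 TPM and Hist1h4n, identical in its coding sequence, at 14.53, 24.07 and 11.89 TPM. Hist1h4i (chr13:22040636-22041362, minus strand), with 71.1% of its windows unique, was at 17.46, 26.87 and 8.70 TPM. All 3 were highest in replicate 2. Hist1h4k had the widest spread of the family, at 14.91, 30.73 and 4.63 TPM on only 21.32, 39.98 and 7.96 counts. In the read-based table its mean of 23.0 TPM was the highest of the class. Its annotated transcript has 312 bases, and the authors' effective lengths for it were 115, 82.8 and 86.6 bases, so its TPM also moves with the fragment length assumed for each library. The sole Hist4 gene, Hist4h4, was the lowest detected H4 gene by alignment-based TPM, at 1.48, 2.63 and 1.10 TPM. Its mean read-based TPM of 3.81 ± 0.168 (SD, n = 3) exceeded its alignment-based TPM by the largest ratio among detected members. Hist1h4j was lower in the read-based table, at a mean of 3.14 TPM.

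**Figure D2:**
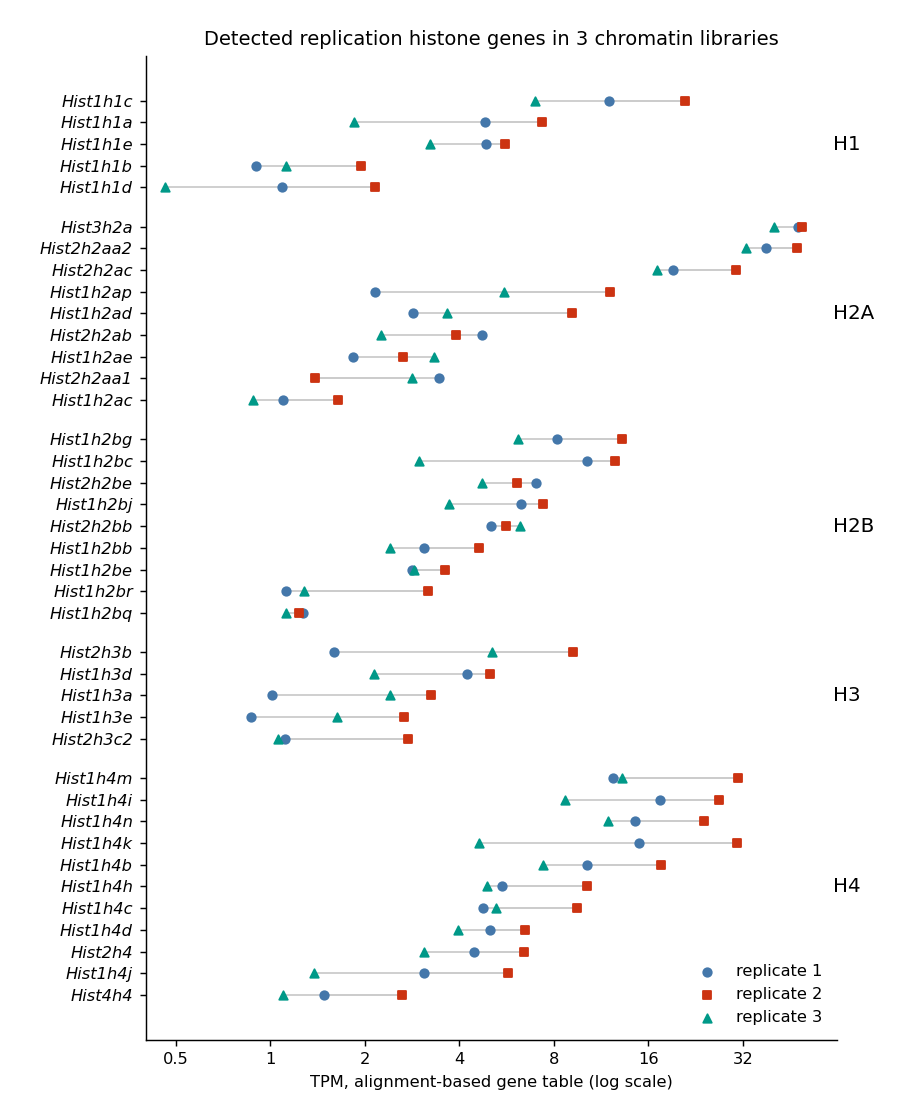
TPM of the 39 detected replication histone genes in the alignment-based gene table, on a log axis, ordered by mean within each class, with a point for each library. Replicate 2 (squares) lies farthest right for 33 of the 39 genes, including all 11 H4 genes.

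Replication histone RNA differed between libraries in a way that most members shared. Replicate 2 gave the highest TPM for 33 of the 39 detected members, while 28.7% of all detected genes were highest there. Replicate 3 gave the lowest TPM for 26 of the 39, against 25.8% of all detected genes. On counts with TMM scaling (CPM), an edgeR scaling of library size that takes no transcript length into account, 33 were again highest in replicate 2 (34.5% of all detected genes) and 29 lowest in replicate 3 (27.3%). In the read-based TPM, 32 were highest in replicate 2 (31.5%) and 32 lowest in replicate 3 (27.9%). By alignment-based TPM, replicate 2 was highest for 20 of the 22 detected members with at least 50% unique windows. It was highest for 27 of the 31 with at least 10 counts in every library. The shares of all genes under these filters are not given here.

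The difference was sizeable for many of them. Replicate 2 was at least 1.5 times both other libraries in 21 of the 39 members by TPM, compared with 2.40% of all detected genes, and in 17 of the 39 by TMM-scaled counts, compared with 1.97%. It was at least 1.5 times replicate 3 in 30 of the 39 by either measure, where 6.27% of all detected genes by TPM and 5.90% by TMM-scaled counts were. A deviation was taken as log2(TPM + 1) in 1 library less the average over the remaining libraries, a scale that understates differences of low genes. Its median over the 39 members was 0.71 in replicate 2, −0.48 in replicate 3 and −0.10 in replicate 1. The same medians over all detected genes were −0.03, 0.02 and 0.02. For replicate 1 the sign changed with the scaling.

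By class, 5 of 5 detected H1, 5 of 5 H3 and 11 of 11 H4 genes were highest in replicate 2, by TPM and by TMM-scaled counts alike. Of the H2A and H2B genes 6 of 9 each were. The 6 exceptions were Hist2h2aa1, Hist2h2ab, Hist1h2ae, Hist2h2bb, Hist2h2be and Hist1h2bq. Hist2h2aa1 stood lowest there, and Hist2h2bb and Hist1h2ae were highest in replicate 3, at 6.22 and 3.32 TPM. Between replicates 2 and 3 the ratio of TPM was 6.64 for Hist1h4k, 4.67 for Hist1h1d, 4.19 for Hist1h2bc and 3.01 for Hist1h1c, and it was 1.22 for Hist3h2a.

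Technical features of the libraries also differed. Replicate 2 had the smallest amount of starting RNA (250 ng), and with 1 library at each amount the amount and the library cannot be told apart. The mean fragment length implied by the authors' effective lengths was 210, 255 and 249 bases in the alignment-based tables. It was 206, 206 and 218 bases in the read-based tables, which come from the same libraries. Stromal markers summed to 0.01, 2.00 and 1.03 TPM in the alignment-based table. There Pdgfra was at 0 expected counts in each library and Col1a1 at 1, 38 and 47. In the read-based table Pdgfra had a mean of 0.490 TPM. The 3 of 6 stromal markers that had enough counts to be detected were all highest in replicate 2 by TPM, as were 28.7% of all detected genes. Their means were low, at 0.437 TPM for Col3a1, 0.287 for Col1a1 and 0.260 for Col1a2. Col1a1 was nearly level in replicates 2 and 3, at 0.43 and 0.42 TPM. On the alignment-based scale neutrophil markers summed to 1.26, 1.06 and 1.60 TPM and lymphocyte markers to 0.44, 0.45 and 0.30 TPM. Erythroid markers summed to 11.92, 8.49 and 11.59 TPM on it, nearly all of it Alas2. The part of starting amount, fragment length and stromal RNA in the replicate 2 result was not tested.

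The spread between libraries was wider in the members than in the median gene. The biological coefficient of variation, edgeR's estimate of spread beyond counting noise, had a median of 0.275 over the 39 members and was lowest in Hist3h2a and highest in Hist1h4k. It was 0.157 over all detected genes and 0.191 over the 4119 genes whose mean counts fell in the middle range of the members. H1 genes had a median of 0.328, H3 of 0.306, H4 of 0.294, H2A of 0.249 and H2B of 0.245.

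Genes that act beside the replication histones were examined for the same feature. S-phase genes, which copy DNA and supply its building blocks, had 14 of 25 detected members highest in replicate 2 by TPM (28.7% of all detected genes) and 16 of 25 by TMM-scaled counts (34.5%). Their median deviation in replicate 2 was 0.21 by TPM and 0.27 by TMM-scaled counts, against 0.71 and 0.57 for the replication histones. The difference between these lists was not tested. The highest S-phase genes, the thymidine kinase Tk1 at 41.48, 41.18 and 38.06 TPM and the sliding clamp Pcna at 36.41, 23.67 and 22.75 TPM, were not highest in replicate 2 by TPM, whereas the cell cycle kinase Cdk2 was, at 14.81, 17.39 and 14.49 TPM. By TMM-scaled counts Tk1 was highest there as well, at 36.9, 38.9 and 32.1 CPM, and Pcna was not, at 22.3, 16.2 and 14.6 CPM. Fen1, a flap nuclease, was the lowest at 0.44, 0.24 and 0.42 TPM. Mitosis genes had 3 of 9 highest there by TPM and 4 of 9 by TMM-scaled counts. By alignment-based TPM they were led by the proliferation marker Mki67 at 7.44, 6.15 and 8.13 TPM and the topoisomerase Top2a at 5.57, 5.33 and 6.53 TPM. The kinase Aurkb followed at 2.63, 4.65 and 2.02 TPM, and Cdc20 was lowest at a mean of 0.213 TPM. The order differed in the read-based table, where Cdk1 led at a mean of 14.3 TPM, before Top2a at 9.65, Birc5 at 9.49 and Mki67 at 6.79 TPM.

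Replacement histones, which are deposited outside S phase from genes elsewhere in the genome, had 3 of 10 detected members highest in replicate 2 on both scales. The H3.3 gene H3f3b stood at 259.17, 266.44 and 239.34 TPM, above every replication histone. H2afy (macroH2A) was at 82.43, 91.14 and 90.07 TPM and the other H3.3 gene, H3f3a, at 28.34, 21.75 and 18.55 TPM, while H1fx was at 0. The median log2(TPM + 1) was 3.34 ± 0.11 (SD, n = 3) over 10 detected replacement histones and 2.51 ± 0.39 over 39 detected replication histones. Replication histones were lower by 0.82, 0.34 and 1.35 in replicates 1, 2 and 3, a mean difference of −0.84 ± 0.50 (two-sided exact sign-flip permutation test over libraries, p = 0.25, the smallest p that 3 libraries allow). Compared with the S-phase genes, at 2.45 ± 0.14, the differences were 0.07, 0.30 and −0.21 (mean 0.06 ± 0.25, the same exact test, p = 0.75), and their sign depended on the table and the filter.

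The machinery that makes and removes histone mRNA was present. All 14 processing genes were detected, with 4 highest in replicate 2 by TPM and 7 by TMM-scaled counts. Srrt, which links the RNA cap complex to processing, was at 172.15, 201.31 and 189.81 TPM, the cleavage nuclease Cpsf3 at 34.79, 30.87 and 33.30 TPM and the scaffold Sympk at 29.70, 31.04 and 32.44 TPM. Zfp473, a partner of the processing complex, was the lowest at a mean of 0.470 TPM. Slbp itself stood at 23.93, 21.68 and 19.09 TPM. All 7 decay genes were detected and 0 were highest in replicate 2 by TPM, with 2 by TMM-scaled counts. They were led by the uridylyltransferase Tut7 at 197.08, 158.08 and 155.24 TPM, the exonuclease Xrn1 at 95.69, 68.77 and 83.37 TPM and Tut4 at 83.96, 73.63 and 69.66 TPM, with Lsm1 lowest at a mean of 2.93 TPM. Of the histone chaperones 7 of 8 were detected, 4 of them highest in replicate 2 by TPM and 3 by TMM-scaled counts. Atrx was at 298.57, 316.84 and 276.60 TPM, Daxx at 165.26, 77.07 and 96.30 TPM, Asf1a at 35.55, 23.02 and 29.29 TPM, and Asf1b, the form tied to proliferation, at 0.83, 0.47 and 0.25 TPM.

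**Figure D3:**
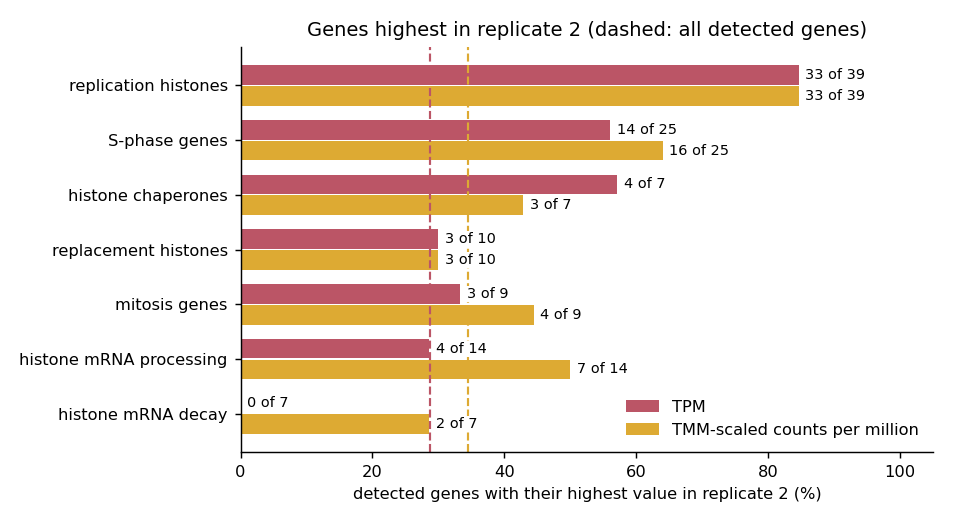
Share of detected genes of each list whose highest value was in replicate 2, by TPM and by TMM-scaled counts, with the counts beside the bars. Dashed lines mark the shares over all detected genes, 28.7% by TPM and 34.5% by TMM-scaled counts. The replication histones reach 33 of 39 on both scales.

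Where the annotated transcripts end was then set beside the stem-loops shown above. Models that run more than 50 bases past the stem-loop numbered 28 in 26 genes, and they held 43.8 ± 2.76% (SD, n = 3) of the TPM of all members in the alignment-based table and 44.2 ± 1.87% in the read-based table. The 20 models that end at the stem-loop held 37.2 ± 2.40%, the 15 that end at the stop codon 10.7 ± 2.41% and the 12 with no motif 8.36 ± 0.762% in the alignment-based table. By expected counts, to which long models contribute more, 71.4 ± 1.28% lay in models that run past the stem-loop and 12.5 ± 0.681% in models that end at it. With 62 of the 67 genes having a single annotated transcript, this split is set by the annotation: the tables do not show where reads lay along a transcript. Hist3h2a alone decided much of it, and without that gene the share past the stem-loop was 34.7%. The genes with the highest levels among those annotated past the stem-loop were Hist3h2a, Hist2h2ac, Hist1h4i, Hist1h1c and Hist1h2bg, whose models went on for 1643, 57, 330, 840 and 155 bases after it. When an end within 200 bases counted as an end at the stem-loop, the share past it was 33.1%.

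Many H2A and H2B genes lie back to back and start from a shared stretch of DNA. Of 13 pairs of members whose starts faced away from each other within 1000 bases, 12 joined an H2A to an H2B gene, with starts 176 to 306 bases apart. Both partners were detected in 4 pairs, 1 partner in 3 and neither in 6. Partners did not have equal levels: in the 4 pairs the higher exceeded the lower 3.53 to 7.09 times on the mean of alignment-based TPM and 3.33 to 13.0 times on that of read-based TPM. Hist2h2ac was 3.74 times Hist2h2be in the first table and 3.45 times in the second. On the Hist1 cluster Hist1h2bc was at 7.09 times the H2A gene Hist1h2ac in the first table and 13.0 times in the second. Hist1h2bg was at 3.53 and 5.82 times the H2A gene Hist1h2ae. The remaining Hist1 pair was listed the other way, with the H2A gene Hist1h2ap at 3.54 and 3.33 times Hist1h2br. This ratio depends on how shared reads were divided, since 6.93% of the windows of Hist1h2ap and 0.166% of those of Hist1h2br were unique. Each has a twin with an identical coding sequence, Hist1h2ao and Hist1h2bq. Read-based means were 3.04 TPM for Hist1h2ap and 0.971 for Hist1h2ao, beside 0.913 for Hist1h2br and 2.52 for Hist1h2bq. In the pair of Hist2h2ac and Hist2h2be the first was highest in replicate 2 and the second in replicate 1.

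Promoters were available for 62 of the 67 members from RefSeq (GRCm38.p6), as 250 bases before to 50 bases after the annotated start. They are described for their letters only, and whether these bear on the differences between libraries was not tested. Of the 62 windows 20 overlapped the window of another member, in each case the head-to-head partner, so the windows are not independent and 1 match can be counted for both genes. Both strands were searched for 4 sets of letters known from histone promoters, none of which is contained in another. The letters CCAAT, to which the factor NF-Y binds, were in 53 of 62 windows and in 37.9% of 27025 promoters of the same length. They were in all 50 windows of H1, H2A, H2B and H3 genes and in 3 of 12 windows of H4 genes. The octamer ATTTGCAT, a site of Oct factors known from H2B promoters, was in 13 windows, 7 of H2A and 6 of H2B genes, and in 1.75% of all promoters. Counted once per position in the genome, these were 10 octamers, since 6 of the 13 windows overlapped another. TATAAA was in 35 windows (14.2% of all promoters). AAACACA, the H1 box, was in 9 windows (7.14% of all promoters), among them 5 of 6 H1 windows.

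The upstream 250 bases of a leading gene of 4 classes show these differences, with the matches in capitals (the octamer and CCAAT may read as ATGCAAAT and ATTGG on the other strand).
Hist1h1c, chr13:23738557-23738806, plus strand: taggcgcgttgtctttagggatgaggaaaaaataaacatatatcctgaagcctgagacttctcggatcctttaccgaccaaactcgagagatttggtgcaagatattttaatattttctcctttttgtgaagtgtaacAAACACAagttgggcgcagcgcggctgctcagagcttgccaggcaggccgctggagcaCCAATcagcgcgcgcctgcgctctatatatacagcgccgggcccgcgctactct
Hist2h2ac, chr3:96220881-96221130, minus strand: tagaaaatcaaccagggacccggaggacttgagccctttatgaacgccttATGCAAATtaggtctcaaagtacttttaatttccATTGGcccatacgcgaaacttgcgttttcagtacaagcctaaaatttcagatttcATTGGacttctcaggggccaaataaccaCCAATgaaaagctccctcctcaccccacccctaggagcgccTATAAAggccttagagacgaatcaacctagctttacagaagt
Hist1h2bg, chr13:23571150-23571399, plus strand: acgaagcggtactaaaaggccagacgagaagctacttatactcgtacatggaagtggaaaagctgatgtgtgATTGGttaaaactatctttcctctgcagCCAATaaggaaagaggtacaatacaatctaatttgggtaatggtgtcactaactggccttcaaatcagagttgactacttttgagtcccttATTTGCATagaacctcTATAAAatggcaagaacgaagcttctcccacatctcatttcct
Hist1h4i, chr13:22041363-22041612, minus strand: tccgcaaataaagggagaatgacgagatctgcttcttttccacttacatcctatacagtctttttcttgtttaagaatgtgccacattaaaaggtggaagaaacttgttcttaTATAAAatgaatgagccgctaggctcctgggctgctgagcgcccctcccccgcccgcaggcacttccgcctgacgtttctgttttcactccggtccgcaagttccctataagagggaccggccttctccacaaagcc
The Hist1h1c window held the H1 box and CCAAT, and the Hist2h2ac and Hist1h2bg windows held the octamer, CCAAT and TATAAA. The Hist1h4i window held only TATAAA. A match is a description of the letters and not a measured binding site.

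**Figure D4:**
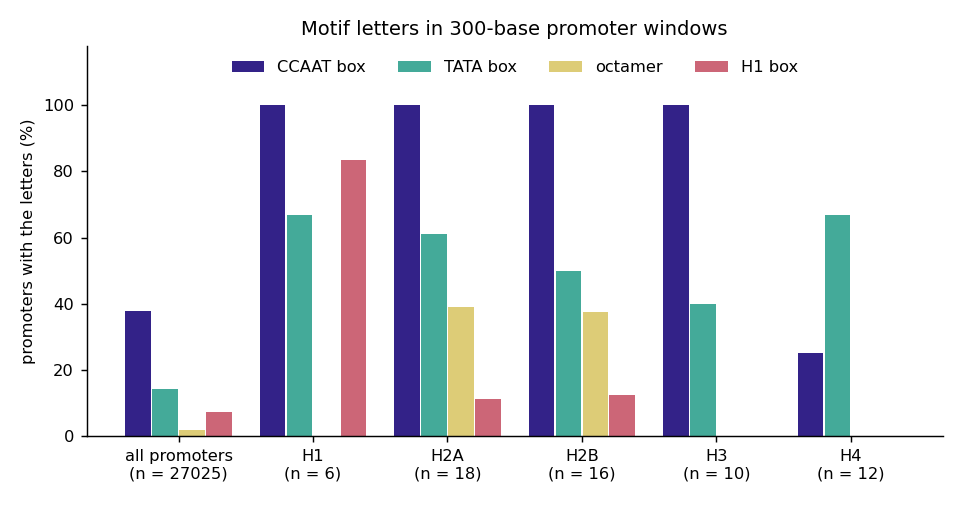
Percent of 300-base promoter windows that hold each set of letters on either strand, for 27025 RefSeq promoters and for the members by class (n below each group). CCAAT was in all windows of H1, H2A, H2B and H3 genes and in 3 of 12 H4 windows, and the octamer was in H2A and H2B windows only.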

How the data were processed

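Total RNA of the chromatin fraction of macrophages was measured in 1 group of 3 libraries. Per the README files deposited with each library, the tables used mm10 and GENCODE M21. The expected counts and TPM of the gene and transcript tables were estimated by the authors from alignments to the transcriptome, and the estimated counts and TPM of the read-based table directly from the reads. The effective lengths and interval bounds are also as deposited. Tools and versions are not given in the sources used here. Rows of no annotated gene held 1.24, 0.482 and 0.228% of counts in replicates 1, 2 and 3 and were left out.

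Read-based values were summed per gene. Levels are log2(TPM + 1), and genes with 10 or more expected counts on average were taken as detected. Expected counts were rounded for TMM scaling and dispersions (edgeR 4.0.16, intercept only) and for size factors (DESeq2 1.42.0). On simulated counts with biological coefficients of variation of 0.1, 0.2 and 0.4 for 15873 genes, the fit returned 0.0995, 0.199 and 0.397. List differences were tested within libraries by an exact sign-flip permutation. Stem-loops were searched in transcripts, since no genome was used, and 50-base windows were compared on both strands.

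Members and gene lists were chosen with earlier results of these data known, among them a higher level of histone genes in replicate 2. Named genes are the 3 highest and the lowest detected member of each class, the highest of each cluster, the 3 largest and 2 smallest ratios of read-based to alignment-based TPM, the testis members, the 5 highest members annotated past the stem-loop, and the 3 highest and the lowest of each other list. Hist1h1b, Hist1h4j, Hist1h4k, Hist2h2aa1, Hist1h2br, Hist2h3c1, Slbp, Trim17, Alas2 and the genes named as exceptions or in counts of 6 or fewer were added after their values were seen. Of the cell type markers only those that bear on a result are named. Alternatives were another quantification, pseudocount, scaling or filter and leaving out each replicate.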

Additional observations from a re-analysis of the deposited data

Results flagged for a closer look

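The processed pseudogene Hist3h2bb-ps, which has no protein-coding transcript and so is no member, had 5, 4 and 7 expected counts in replicates 1, 2 and 3. It stands here because RNA was counted for a gene that no comparison above uses, with a highest count of 7, where a gene observed at 0 would be given an upper limit of 3 counts. The cause was not tested.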

How the results depend on the processing

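Members and copies with few reads set the limits here: the detected members had a median of 42.6 counts, and those with under 50% unique windows had interval widths of 1.01 times their TPM in the median, against 0.473 times for the others. A minimum mean count of 1 gave 59 detected members, a median level of 1.87 and 50 members highest in replicate 2. No filter gave a level of 1.61 and 52 members highest in replicate 2. The share of all genes highest in a replicate is not given for these or the following filters. Rescaling TPM without features under 200 nt and the ribosomal locus raised the median level to 3.29 and the sums of H1, H2A, H2B, H3 and H4 to 49.1, 263, 97.5, 38.1 and 214 TPM, by the construction of that scale. The level of replication histones minus S-phase genes was −0.69 in the read-based table, −0.052 with posterior mean TPM, −0.58 with a minimum count of 1, −0.84 without a filter and −0.037 without replicate 2; the cause was not tested.

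The deviation of replicate 1 was 0.023 in the read-based table and 0.0078 with DESeq2 scaling. Alternatives chosen after seeing the data left 2 members highest in replicate 1 at 10 counts in every library and 1 with at least 50% unique windows, where 20 were highest in replicate 2 and 1 in replicate 3. At 500 nt or more 1 was highest in replicate 3. Without Hist3h2a the H2A sum was 93.5 TPM and the share past the stem-loop 34.7%, and that share was 33.1% with the limit of 200 bases and 71.4% by expected counts, which weight long models more by construction.

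Leaving out each replicate gave 38 to 40 detected members, levels of 2.34 to 2.69, differences of −1.05 to −0.60 from replacement histones and −0.037 to 0.15 from S-phase genes, and deviations of −0.59 to 0.24 for replicate 1, 0.59 to 0.80 for replicate 2 and −0.80 to −0.24 for replicate 3. Sums ran from 19.3 to 32.1 for H1, 121 to 152 for H2A, 42.3 to 60.0 for H2B, 14.1 to 24.1 for H3 and 81.4 to 136 TPM for H4, the share past the stem-loop from 42.7 to 45.3%, and the coefficient of variation from 0.238 to 0.243. Members highest in a replicate were not recounted without replicates. No paired analysis was possible because the libraries form 1 group. Of the 67 single members, 14 moved beyond their SD in the read-based table, 22 having higher and 42 lower values, and 50 after rescaling. The shares of all genes that moved in these ways are not given here. The median ratio of read-based to alignment-based TPM was 1.29 over 15862 detected genes. It was 0.836 over detected members with under 50% unique windows and 0.775 over the other detected members.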
